A study of Mus musculus with 9 samples.

Results

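Transcripts of 9 synaptic organiser genes were followed in sorted embryonic midbrain dopamine (DA) neurons: the neurexins Nrxn2 and Nrxn3, the neuroligins Nlgn1, Nlgn2 and Nlgn3, and the postsynaptic scaffolds Dlg4, Shank1, Shank2 and Shank3. They were chosen by name from the gene lists deposited with the series, and all 9 were found among 47729 genes and passed the filter on low counts that left 17988 genes for testing. The libraries came from C57BL/6J mouse embryos at E15.75 that all carried 1 Pitx3-Cre knock-in allele and a Rosa26 reporter that turns on YFP after Cre acts. Besides these alleles, Dot1l(+/+) embryos had no floxed Dot1l allele, Dot1l(fl/+) embryos had 1 and Dot1l(fl/fl) embryos had 2. The floxed exon of Dot1l, the gene for the H3K79 methyltransferase, is removed where Pitx3 has driven Cre, so loss is limited to Pitx3-expressing cells, and the Cre knock-in also occupies 1 Pitx3 allele in all genotypes, controls included. YFP-positive cells were sorted by flow cytometry, and each library pooled several embryos of 1 genotype, with 3 libraries for Dot1l(+/+), 3 for Dot1l(fl/+) and 2 for Dot1l(fl/fl) analysed here.

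Neurexins are presynaptic adhesion proteins whose extracellular parts bind neuroligins and other ligands across the synaptic cleft, and whose intracellular tails bind PDZ proteins of the release machinery. Neuroligins are their postsynaptic partners: Nlgn1 is known from excitatory synapses, Nlgn2 from inhibitory synapses and Nlgn3 from both. Inside the postsynaptic density, PSD-95, the product of Dlg4, binds neuroligins and NMDA receptors, and the Shank proteins form a deeper layer that links PSD-95-associated proteins to Homer and the actin cytoskeleton. DA neurons make both ends of such contacts, since they receive excitatory and inhibitory input and release transmitter from their own axons. At E15.75 synapse formation in the midbrain is at an early stage.

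The genes lie on 6 autosomes and on the X chromosome (GRCm38, GENCODE gene models). Nrxn2 (ENSMUSG00000033768) lies at chr19:6418731-6544169 and Nrxn3 (ENSMUSG00000066392) at chr12:88722876-90334935, both on the plus strand, and Nrxn3 spans 1612 kb. Nlgn1 (ENSMUSG00000063887, chr3:25426215-26332460, minus strand) spans 906 kb, whereas Nlgn2 (ENSMUSG00000051790, chr11:69823122-69837784, minus strand) spans 14.7 kb. Nlgn3 (ENSMUSG00000031302, chrX:101299168-101325963, plus strand) is the X-linked member. Dlg4 (ENSMUSG00000020886, chr11:70016942-70047522, plus strand) lies on the same chromosome as Nlgn2. Shank1 (ENSMUSG00000038738, chr7:44310253-44360572) and Shank2 (ENSMUSG00000037541, chr7:144001928-144424494) share a chromosome, and Shank3 (ENSMUSG00000022623) lies at chr15:89499623-89560261, all on the plus strand.

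The members have long mature transcripts. Their merged exon lengths ran from 5785 bases for Nlgn2 to 13812 bases for Nrxn2, against a median of 3827 bases over the genes tested, and 8 of the 9 stood at or above the 89.6th percentile of length. The GC content of the Shank1, Shank3, Nrxn2 and Nlgn2 transcripts, 60.0 to 62.5%, lay at the 96.0th percentile or above, while that of Nlgn1, 41.2%, lay at percentile 7.81. Length and GC content are given because sequencing libraries can differ in how well they recover long or GC-rich transcripts, and the libraries here did differ in the level of long transcripts.

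Promoter sequence from RefSeq (GRCm38.p6) was found for 5 members, Nlgn1, Nlgn2, Dlg4, Nrxn3 and Shank3, with 10 start sites between them. Over the 250 bases before a start site, the motif CG was counted in all 32851 promoters of the table, with a median of 6. Shank3 had 31, a number reached by 5.19% of promoters, and Nlgn2 had 18, reached by 21.7%. The Nrxn3 start sites found ranged from 2 at the most upstream one to 12 at the most downstream one. That most upstream one lies inside the gene model, which starts at chr12:88722876, so it need not be the first promoter of the gene. These windows are shown because DOT1L acts on the chromatin of transcribed genes and because they show how unlike the start regions of the members are, with each CG in capitals (5′ to 3′ on the strand of the gene):
Shank3 (chr15:89499358-89499607, plus strand): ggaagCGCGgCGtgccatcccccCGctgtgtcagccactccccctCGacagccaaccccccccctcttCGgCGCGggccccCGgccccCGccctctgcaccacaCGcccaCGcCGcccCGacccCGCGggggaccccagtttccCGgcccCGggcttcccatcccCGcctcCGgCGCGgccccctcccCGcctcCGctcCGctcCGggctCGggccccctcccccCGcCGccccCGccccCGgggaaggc
Nlgn2 (chr11:69837785-69838034, minus strand): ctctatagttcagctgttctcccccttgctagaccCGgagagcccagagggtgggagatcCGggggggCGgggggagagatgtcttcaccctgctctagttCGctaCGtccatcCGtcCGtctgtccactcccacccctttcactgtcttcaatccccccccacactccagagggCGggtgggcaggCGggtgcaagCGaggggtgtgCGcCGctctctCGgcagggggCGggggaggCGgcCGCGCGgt
Nrxn3, most upstream start (chr12:88794254-88794503, plus strand): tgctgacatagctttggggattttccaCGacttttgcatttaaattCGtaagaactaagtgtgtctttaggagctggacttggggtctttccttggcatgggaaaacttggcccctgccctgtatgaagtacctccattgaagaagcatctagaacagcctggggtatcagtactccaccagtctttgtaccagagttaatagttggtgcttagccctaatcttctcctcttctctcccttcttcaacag
Nrxn3, most downstream start (chr12:89812233-89812482, plus strand): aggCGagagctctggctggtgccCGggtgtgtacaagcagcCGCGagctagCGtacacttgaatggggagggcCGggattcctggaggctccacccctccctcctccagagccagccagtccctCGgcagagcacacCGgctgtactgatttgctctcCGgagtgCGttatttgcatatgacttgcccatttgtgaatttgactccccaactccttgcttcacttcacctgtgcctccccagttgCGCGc
The Shank3 window was 82.4% G and C and that of the upstream Nrxn3 start 45.6%. CG is its own reverse complement, so 1 count covers both strands.

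Counts of related genes can be mixed where their transcripts share long identical stretches. Within the 3 families the longest stretch shared by 2 members ran from 17 to 26 bases over 7 pairs, all 7 inside coding sequence of at least 1 partner. Those of 4 pairs are shown to let the closeness of the relatives be judged, and in each the whole run is shared:
Shank1 and Shank3: ctgctggacaaggggctggaccccaa
Nlgn1 and Nlgn3: ggagagttcctcaactatgatat
Nlgn2 and Nlgn3: ttcccctgcaacttctccaagaa
Nrxn2 and Nrxn3: agcaacaacttcatgggctgcct
Overlapping genes were a larger concern for Nlgn3 than for the others: Gm21986 shares 3823 of its exon bases on the same strand, and had 0 to 49 counts per library. Nrxn2, Nrxn3, Nlgn1, Shank1 and Shank3 share 271 to 1229 exon bases with genes on the opposite strand, and Nlgn2, Dlg4 and Shank2 share none. Counts were made with gene annotation by the sequencing provider, and whether strand was used in counting is not given in the sources used here. Nrxn2, Nrxn3, Nlgn1, Shank1 and Shank3 carry that uncertainty. The overlap of Nlgn3 is on the same strand, so it remains whether or not strand was used.

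Library totals ran from 13616922 to 43674673 counts, and the members had 664 to 35728 counts per library. Counting error weighs most on members with few counts, such as Nlgn3 and Nlgn1 with 664 and 687 in Dot1l(fl/fl) 2. Its part in their spread between libraries was not measured. The targeted gene did not follow the labels in all libraries. Dot1l was at 105, 84.6 and 94.6 CPM (counts scaled to the TMM-adjusted library size) in the Dot1l(+/+) libraries and at 75.5, 65.6 and 76.2 in the Dot1l(fl/+) libraries. In the library labelled Dot1l(fl/fl) 1 it was at 64.9, but in the library labelled Dot1l(fl/fl) 2 at 99.1 CPM, within the control range. Counts over the whole gene include exons that are not floxed, so they do not measure the deletion itself, and values without each Dot1l(fl/fl) library are given below. All 13 listed DA neuron markers were detected, with a summed level of 6758 to 7694 CPM in Dot1l(+/+), 6655 to 7157 in Dot1l(fl/+) and 5425 to 6459 in the Dot1l(fl/fl)-labelled libraries. Th, the rate-limiting enzyme of dopamine synthesis, was at 650 to 1047 CPM over the 8 libraries.

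Sums over markers of other cells were small beside those of DA neurons. GABAergic markers (6 of 6 detected) came to 204 to 225 CPM in Dot1l(+/+), 196 to 231 in Dot1l(fl/+) and 235 to 264 in the Dot1l(fl/fl)-labelled libraries, so that the last group stood above the controls. Of these markers Slc32a1, the vesicular GABA transporter, made the difference, at 156 and 129 CPM in the Dot1l(fl/fl)-labelled libraries against 108 to 113 in Dot1l(+/+), while the GABA-synthesising enzyme Gad2 was at 98.8 and 95.2 against 83.7 to 97.4 and Gad1 at 5.25 and 7.06 against 5.60 to 9.14. Immediate early genes of the dissociation response (8 of 8) gave 937 to 1076, 903 to 1137 and 1244 to 1264 CPM in the same order, again higher in both of the Dot1l(fl/fl)-labelled libraries. Over all libraries, glutamatergic markers summed to 176 to 222 CPM, radial glia and astrocyte markers to 224 to 271, microglial markers to 83.7 to 123, blood markers to 11.9 to 33.4, endothelial markers to 4.37 to 14.6 and oligodendrocyte-lineage markers to 5.17 to 14.1. Serotonergic and fibroblast markers stayed at or below 2.70 and 2.33 CPM, and no listed marker was at 0 in all libraries. Sex-linked transcripts summed to 151 to 1168 CPM, and Xist alone ran from 0 to 1167 CPM with both low and high libraries in each genotype. A smaller share of a cell type and less RNA per cell cannot be told apart in bulk libraries, and the part of these shifts in the results below was not tested.

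Levels are compared between genes per kilobase of merged exon. In the Dot1l(+/+) libraries Nlgn2 was highest at 63.1 ± 5.05 CPM per kb (SD, n = 3), followed by Nrxn2 at 57.0 ± 3.39. The ranges of these 2 overlapped, and Nlgn2 led in 6 of the 8 libraries and Nrxn2 in the other 2. Next came Shank1 at 27.6 ± 4.68, Nrxn3 at 26.1 ± 3.12 and Dlg4 at 22.5 ± 0.420, whose neighbouring ranges overlapped. The third tier was Shank3 at 8.05 ± 1.58, Nlgn3 at 6.78 ± 0.390 and Shank2 at 6.22 ± 1.16 CPM per kb, again overlapping. Nlgn1 was lowest in all 8 libraries and came to 3.90 ± 0.156 in the controls, 16.2-fold below Nlgn2. The steps that exceeded the spread in these libraries were thus from Nrxn2 to Shank1 (2.07-fold), from Dlg4 to Shank3 (2.80-fold) and from Shank2 to Nlgn1 (1.59-fold). Merged exons count sequence that a cell may not use, so genes with many annotated isoforms, such as Dlg4 with 22 and Nrxn2 with 18, may be set too low on this scale.

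Each family kept its make-up across genotypes. Of the summed neuroligin level per kb, Nlgn2 held 83.1 to 86.2% over the 8 libraries, Nlgn3 8.47 to 10.9% and Nlgn1 4.75 to 6.13%. Nlgn2, the neuroligin of inhibitory synapses, was thus the most abundant neuroligin transcript per kb in all 8 libraries. Of the 2 neurexins, Nrxn2 held 67.7 to 72.8%. Of the Shank sum, Shank1 held 65.0 to 66.5%, Shank3 18.4 to 20.5% and Shank2 14.0 to 16.2%, although the sum itself varied from 27.6 to 48.3 CPM per kb. The means of Shank1's share were 66.0% ± 0.419, 65.5% ± 0.779 and 65.9% ± 0.384 (SD, n = 3, 3 and 2) in Dot1l(+/+), Dot1l(fl/+) and Dot1l(fl/fl), so their differences were within the spread.

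Among the neurexins, Nrxn2 was at 800, 735 and 826 CPM in the 3 Dot1l(+/+) libraries, 802, 753 and 747 in the 3 Dot1l(fl/+) libraries, and 785 and 705 in the Dot1l(fl/fl)-labelled libraries. The 3 groups overlapped. For Dot1l(fl/fl) against Dot1l(+/+) it had a log2 fold change of -0.08 ± 0.09 (SE), with a 95% interval from -0.26 to 0.10 (edgeR quasi-likelihood test, adjusted p = 0.866), and was -0.0054 without Dot1l(fl/fl) 2 and -0.16 without Dot1l(fl/fl) 1. Nrxn3 was at 342, 284 and 360 CPM in Dot1l(+/+), 320, 303 and 255 in Dot1l(fl/+), and 280 and 272 in the Dot1l(fl/fl)-labelled libraries. Both of the last fell just under the lowest control, while Dot1l(fl/+) overlapped both. The log2 fold change of Nrxn3 in Dot1l(fl/fl) against Dot1l(+/+) was -0.25 ± 0.11, with an unadjusted p of 0.0363 and an adjusted p of 0.494 over all genes tested (edgeR). It was -0.23 without Dot1l(fl/fl) 2 and -0.27 without Dot1l(fl/fl) 1.

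The 3 neuroligins had log2 fold changes of similar size, -0.28 to -0.16, in Dot1l(fl/fl) against Dot1l(+/+), and none passed the test after adjustment. Nlgn2 was at 372, 333 and 390 CPM in Dot1l(+/+), 308, 351 and 345 in Dot1l(fl/+), and 313 and 297 in the Dot1l(fl/fl)-labelled libraries. Its last 2 values lay under all controls, and its log2 fold change was -0.26 ± 0.10 (unadjusted p = 0.0160, adjusted p = 0.391, edgeR), with -0.22 without Dot1l(fl/fl) 2 and -0.30 without Dot1l(fl/fl) 1. Nlgn3, found at both kinds of synapse, was at 58.7, 65.0 and 64.8 CPM in Dot1l(+/+), 64.6, 68.1 and 61.6 in Dot1l(fl/+), and 55.9 and 47.8 in the Dot1l(fl/fl)-labelled libraries. It was the 1 member for which these libraries lay under all 6 others, and the share of all genes doing so was not counted. Of all genes tested, 11.6% had these libraries under all of Dot1l(+/+), and 9.57% under all of Dot1l(fl/+). The log2 fold change of Nlgn3 was -0.28 ± 0.14 against Dot1l(+/+) (unadjusted p = 0.0518, adjusted p = 0.541) and -0.32 ± 0.14 against Dot1l(fl/+) (unadjusted p = 0.0266, adjusted p = 0.998, edgeR). Against Dot1l(+/+) it was -0.17 without Dot1l(fl/fl) 2, the library with Dot1l in the control range, and -0.40 without Dot1l(fl/fl) 1. Against Dot1l(fl/+) it was -0.21 and -0.44 in the same order. Xist, which is made from the inactive X chromosome of females, was at 1167, 416 and 0 CPM in Dot1l(+/+), 321, 266 and 3.16 in Dot1l(fl/+), and 312 and 1.15 in the Dot1l(fl/fl)-labelled libraries, so the libraries differed in the sex of their embryos within each genotype. The part of sex in the values of X-linked Nlgn3 was not tested. Nlgn1, the neuroligin of excitatory synapses, was at 54.6, 52.2 and 50.4 CPM in Dot1l(+/+), 51.9, 56.9 and 44.4 in Dot1l(fl/+), and 44.1 and 49.5 in the Dot1l(fl/fl)-labelled libraries. Its log2 fold change of -0.16 ± 0.15 had an adjusted p of 0.819 (edgeR). Both Dot1l(fl/fl)-labelled libraries were under the controls, and Dot1l(fl/+) overlapped them all. The value was -0.25 without Dot1l(fl/fl) 2 and -0.08 without Dot1l(fl/fl) 1.

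Dlg4 was the steadiest member within the control group. It was at 293, 304 and 299 CPM in Dot1l(+/+), 293, 311 and 288 in Dot1l(fl/+), and 298 and 258 in the Dot1l(fl/fl)-labelled libraries. Only the library labelled Dot1l(fl/fl) 2 stood below the rest. The log2 fold change of Dlg4 was -0.10 ± 0.10, with an interval from -0.31 to 0.10 (adjusted p = 0.832, edgeR), and without that library it was -0.0035, against -0.21 without Dot1l(fl/fl) 1.

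**Figure D1:**
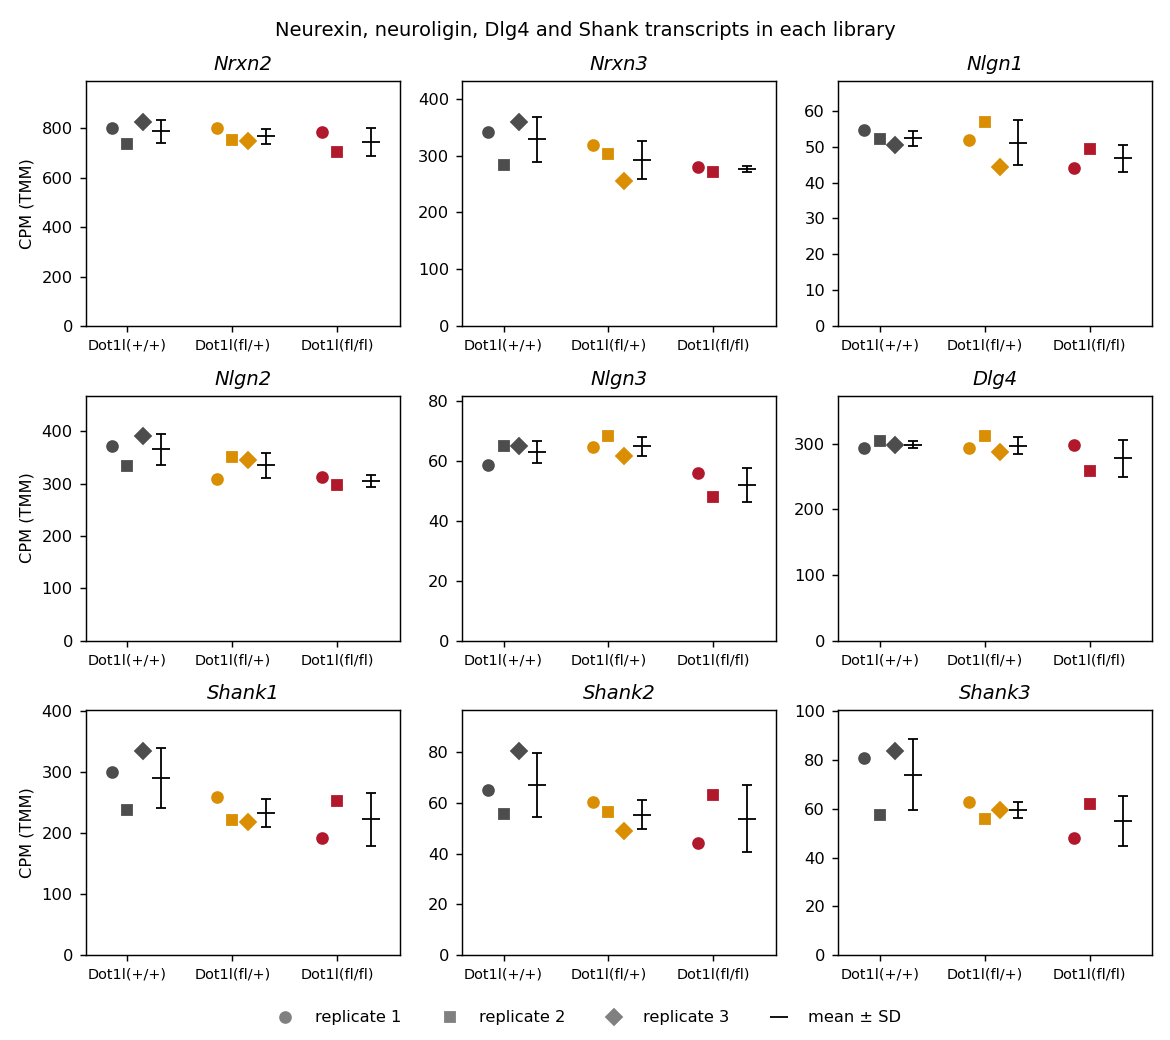
TMM-scaled CPM of each of the 9 genes (vertical axes, starting at 0) in the 3 Dot1l(+/+), 3 Dot1l(fl/+) and 2 Dot1l(fl/fl) libraries, with marker shape giving the replicate number and the bar the mean ± SD. Nlgn3 in the Dot1l(fl/fl)-labelled libraries lies under all other libraries, for which the share of all genes was not counted. The 3 Shank panels share 1 pattern, with Dot1l(+/+) 3 highest and Dot1l(fl/fl) 1 lowest.

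The Shank genes varied most between libraries, within genotypes as well as between them. Shank1 was at 299, 237 and 334 CPM in Dot1l(+/+), 259, 221 and 217 in Dot1l(fl/+), and 192 and 253 in the Dot1l(fl/fl)-labelled libraries. Shank2 was at 65.1, 55.5 and 80.3 CPM in Dot1l(+/+), 60.4, 56.5 and 49.0 in Dot1l(fl/+), and 44.3 and 63.1 in the Dot1l(fl/fl)-labelled libraries. Shank3 was at 81.0, 57.3 and 83.7 CPM in Dot1l(+/+), 62.7, 56.0 and 59.7 in Dot1l(fl/+), and 47.9 and 62.1 in the Dot1l(fl/fl)-labelled libraries. For all 3 genes the groups overlapped, since Dot1l(+/+) 2 was well under the other controls and Dot1l(fl/fl) 2 was above it. The highest control exceeded the lowest by 1.41-fold for Shank1, 1.45-fold for Shank2 and 1.46-fold for Shank3, against 1.04-fold for Dlg4.

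The mean differences of the Shank genes were the largest among the members. In Dot1l(fl/fl) against Dot1l(+/+) the log2 fold change was -0.38 ± 0.13 for Shank1 (unadjusted p = 0.00845, adjusted p = 0.331), and -0.43 ± 0.16 for Shank3 (unadjusted p = 0.0129, adjusted p = 0.361, edgeR). For Shank2 it was -0.32 ± 0.17 (unadjusted p = 0.0679, adjusted p = 0.574, edgeR). With Dot1l(fl/fl) 2 left out the values were -0.60, -0.60 and -0.63 for Shank1, Shank2 and Shank3, and the adjusted p-values of the 3 genes by edgeR were 0.0666, 0.180 and 0.145. Without Dot1l(fl/fl) 1 they were -0.20, -0.09 and -0.25. The size of the Shank difference therefore rested on 1 of these 2 libraries, and the lone remaining library is assumed in each of these fits to vary like those of the other genotypes.

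Over all 9 members, Dot1l(fl/fl) against Dot1l(+/+) gave 0 genes at an adjusted p under 0.05 by edgeR, where the share of all 17988 genes called was 0%. At an unadjusted p under 0.05, 4 members were lower (Nrxn3, Nlgn2, Shank1 and Shank3), against 5.03% of all genes, and 0 were higher, against 4.24%. Groups did not overlap, with the Dot1l(fl/fl) libraries lower, for Nrxn3, Nlgn1, Nlgn2 and Nlgn3, which is 4 of 9 beside 11.6% of all genes. The count of 4 members at an unadjusted p under 0.05 was 0 without Dot1l(+/+) 3 and 0 under an offset for transcript length and GC content (described below). All 9 log2 fold changes were below 0, as were 50.4% of those of all genes, and their median was -0.26 beside -0.0031 for all genes tested. DESeq2 also called 0 members in this comparison, with 2.93% of the genes it tested called, and put 5 members under an unadjusted p of 0.05. The differences of all 9 members were smaller than 1.5-fold.

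In Dot1l(fl/+) against Dot1l(+/+) the same controls were used, and 0 members passed by edgeR (0% of all genes) or by DESeq2 (0% of all genes). At an unadjusted p under 0.05, Shank1 and Shank3 were lower, 2 of 9 members beside 2.86% of all genes, and 0 were higher beside 2.16%. Shank1 had a log2 fold change of -0.32 ± 0.12 (unadjusted p = 0.0122, adjusted p = 0.940) and Shank3 of -0.32 ± 0.14 (unadjusted p = 0.0332, adjusted p = 0.940, edgeR). The count of 2 was 0 without Dot1l(+/+) 3, Dot1l(fl/+) 2 or Dot1l(fl/+) 3 and 0 under the length and GC offset, 1 without Dot1l(+/+) 1, and 5 without Dot1l(+/+) 2. Shank2 was at -0.28 ± 0.15, Nrxn3 at -0.17 ± 0.10 and Nlgn2 at -0.13 ± 0.09. The log2 fold changes of Nrxn2, Nlgn1, Nlgn3 and Dlg4 lay between -0.04 and 0.04. No member had Dot1l(fl/+) libraries all below the controls (0 of 9, beside 5.97% of all genes). The median over the members was -0.13, beside -0.0071 over all genes. It was -0.0696 without Dot1l(fl/+) 1, and -0.0458 under the offset, where 5 of 9 members were below 0.

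Between the genotypes with floxed alleles, Dot1l(fl/fl) against Dot1l(fl/+), 0 members passed by edgeR (0% of all genes) or by DESeq2 (0.00422% of the genes it tested). At an unadjusted p under 0.05, Nlgn3 alone was lower, 1 of 9 beside 2.16% of all genes, and 0 were higher beside 1.86%. Nlgn3 was also the 1 member without overlap, beside 9.57% of all genes. The count at an unadjusted p under 0.05 was 0 without Dot1l(fl/+) 2 and 0 without Dot1l(fl/fl) 2. The Shank genes, in contrast, had log2 fold changes of -0.06 ± 0.13, -0.05 ± 0.17 and -0.11 ± 0.16 for Shank1, Shank2 and Shank3 in this comparison, with intervals that reached from -0.44 to 0.30 over the 3 genes. With all libraries, the mean Shank level of Dot1l(fl/+) thus lay nearer to that of Dot1l(fl/fl) than to that of Dot1l(+/+), and that of Nlgn3 nearer to Dot1l(+/+). Without Dot1l(fl/fl) 2 the values for Shank1, Shank2 and Shank3 against Dot1l(fl/+) were -0.28, -0.32 and -0.31. Without Dot1l(fl/fl) 1 they were 0.12, 0.18 and 0.0578, so the place of the Shank genes depended on which library was kept. Whether the patterns of these genes differ from each other was not tested.

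A trend that is linear over 0, 1 or 2 floxed alleles was fitted to all 8 libraries. By edgeR 0 members passed (0% of all genes), and by DESeq2 0 passed as well, with 3.88% of the genes it tested called. At an unadjusted p under 0.05, Nrxn3, Nlgn2, Shank1, Shank2 and Shank3 were lower with more floxed alleles, 5 of 9 members beside 5.61% of all genes, and 0 were higher beside 4.48%. Shank1 changed by -0.20 ± 0.06 log2 units per allele (unadjusted p = 0.00399, adjusted p = 0.238) and Shank3 by -0.22 ± 0.08 (unadjusted p = 0.00688, adjusted p = 0.259, edgeR). The count of 5 was 0 without Dot1l(+/+) 3 and 0 under the length and GC offset, with or without a replicate block, and 3 without Dot1l(+/+) 1 or Dot1l(fl/fl) 1. This term was the 1 place where a member crossed the threshold under another setting. Shank1 had an adjusted p of 0.0222 by edgeR without Dot1l(fl/fl) 2, and both Shank1 (0.0437) and Shank3 (0.0420) passed without Dot1l(+/+) 2.

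**Figure D2:**
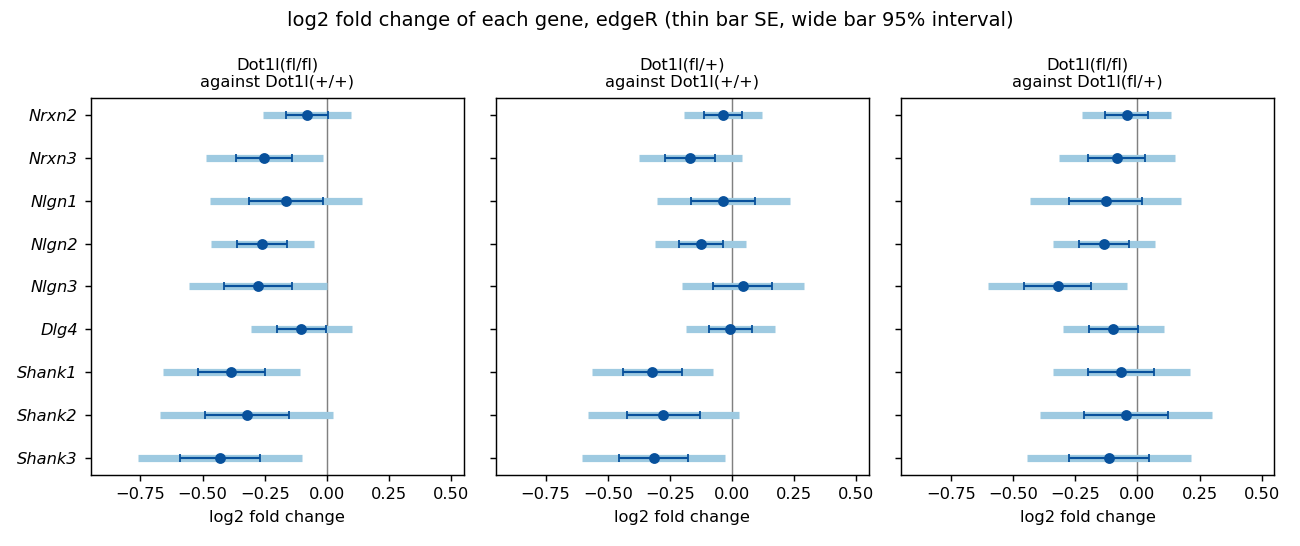
The log2 fold change of each gene (horizontal axis) in the 3 comparisons between genotypes, with points from the edgeR fit, thin bars for the SE and wide bars for the 95% interval. The Shank genes lie at -0.43 to -0.28 in both comparisons with Dot1l(+/+) and near 0 between the genotypes with floxed alleles, where Nlgn3 is at -0.32.

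The 3 Shank genes varied together from library to library. Over the 8 libraries, log2 CPM of Shank1 and Shank3 had Pearson's r = 0.97 (exact permutation p = 0.000372, 0.00714 after Benjamini-Hochberg adjustment over 36 pairs of members) and Spearman's rho = 0.93 (p = 0.00223, adjusted 0.0402). Shank1 and Shank2 had r = 0.96 (exact p = 0.000397, adjusted 0.00714) and rho = 0.95 (p = 0.00114, adjusted 0.0402). Without the libraries farthest from the median, Dot1l(+/+) 3 and Dot1l(fl/fl) 1, r was 0.91 and 0.86. Shank2 and Shank3 had r = 0.88 (exact p = 0.00556, adjusted 0.0667) and rho = 0.88 (p = 0.00724, adjusted 0.0869), with r = 0.64 without those 2 libraries. After the mean of each genotype was taken away, r over the 3 Shank pairs was 0.83 to 0.95, so the shared pattern was present within genotypes.

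Dlg4 did not share this pattern. Its r with the Shank genes was -0.13 to -0.10 (exact permutation, adjusted p = 0.831 for each of the 3 pairs), and rho was -0.31 to -0.05 with adjusted p from 0.616 to 0.962. Leaving out the 2 libraries farthest from its median gave -0.13 to 0.15. The highest r of Dlg4 was with Nlgn3, 0.87 (exact permutation p = 0.0140, adjusted 0.115), with rho = 0.79 (p = 0.0279, adjusted 0.168) and r = 0.76 without both libraries labelled Dot1l(fl/fl). Only the first 2 Shank pairs of the 36 had an adjusted p under 0.05 by Pearson's r.

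The level of the Shank genes in a library followed the level of long transcripts in general. Length here is that of the merged exons. For each library, the median log2 deviation of the longest 10% of the genes tested from their means over all libraries was taken. It was 0.11, -0.04 and 0.16 in Dot1l(+/+), 0.02, 0.01 and -0.08 in Dot1l(fl/+), and -0.15 and 0.03 in the Dot1l(fl/fl)-labelled libraries. The mean deviation of the 3 Shank genes was 0.27, -0.09 and 0.43 in Dot1l(+/+), 0.04, -0.13 and -0.17 in Dot1l(fl/+), and -0.39 and 0.04 in the Dot1l(fl/fl)-labelled libraries. Dot1l(+/+) 3 and 1 were thus highest and Dot1l(fl/fl) 1 lowest on both measures, and the swings of the Shank genes were wider. All 3 Shank genes lie at the 89.6th percentile of length or above, and the longest 10% include those members that reach it, which can add little to a median over so many genes.

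Across the 8 libraries the Shank mean and the long-transcript deviation had r = 0.97 (exact permutation p = 0.000174, adjusted 0.00273 over 20 relations) and rho = 0.98 (p = 0.000397, adjusted 0.00397). Without Dot1l(+/+) 3 and Dot1l(fl/fl) 1, the farthest on that measure, r was 0.91, and after the genotype means were taken away it was 0.96. For single genes r was 0.96 for Shank1, 0.97 for Shank2 and 0.92 for Shank3, with adjusted exact p-values of 0.00380, 0.00273 and 0.0105, and rho was 0.95, 1.00 and 0.88. Nrxn3 had r = 0.82 (adjusted exact p = 0.05) and rho = 0.71 (adjusted 0.230). Dlg4 had r = -0.05 and rho = -0.07 (adjusted exact p = 0.956 and 0.977), and Nlgn3 had r = 0.15 and rho = 0.02 (adjusted 0.912 and 0.977). For Nrxn2, Nlgn1 and Nlgn2, r was 0.41, 0.63 and 0.59 (adjusted exact p = 0.582, 0.296 and 0.317), and rho was 0.43, 0.40 and 0.38 (adjusted 0.708 for each). The merged exons of Dlg4, Nrxn2, Nlgn1 and Nrxn3 are longer than those of the Shank genes. Those of Dlg4 join 22 annotated isoforms, and the length of the isoforms made was not measured for any member. With the most GC-rich 10% of transcripts the Shank mean had r = 0.01 and rho = -0.24 (adjusted exact p = 0.981 and 0.832). What makes long transcripts differ between libraries, RNA integrity included, was not tested.

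**Figure D3:**
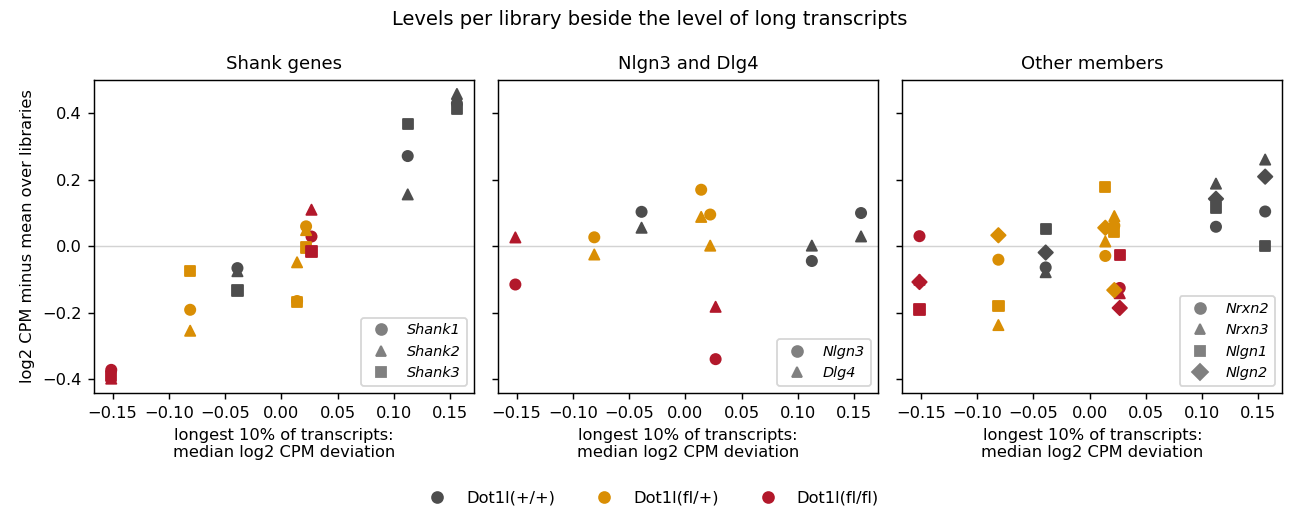
For each library (points, coloured by genotype), the log2 CPM of a gene minus its mean over the 8 libraries (vertical axis) is set against the median log2 CPM deviation of the longest 10% of transcripts (horizontal axis). The Shank genes climb along the axis from Dot1l(fl/fl) 1 at -0.15 to Dot1l(+/+) 3 at 0.16 (r = 0.97 for their mean), whereas Nlgn3 and Dlg4 show no such slope.

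The genes whose profile over the 8 libraries was most like the mean of the 3 Shank genes were Sptbn1 (r = 0.99), a spectrin of the membrane skeleton, Dnajc6, a neuronal auxilin (r = 0.98), March6, a ubiquitin ligase of the endoplasmic reticulum (r = 0.97), Tmem178b (r = 0.97) and Astn1, an adhesion protein of migrating neurons (r = 0.97). These r are the highest among all genes tested and are given as a description of 8 libraries that share their depth and length effects.

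An edgeR fit carried the dependence on transcript length and GC content in each library as an offset. It raised the log2 fold change of each member in Dot1l(fl/fl) against Dot1l(+/+). Nrxn2 ended farther from 0 than before, at 0.13 against -0.08, and the other members ended nearer to 0. In Dot1l(fl/fl) against Dot1l(+/+), the log2 fold change was then -0.20 for Shank1, -0.16 for Shank2 and -0.26 for Shank3, which is 51.9, 48.3 and 60.4% of the value without the offset. Nlgn2 went to -0.17, Nlgn3 to -0.20, Nrxn3 to -0.13 and Nlgn1 to -0.05, and Nrxn2 (0.13) and Dlg4 (0.06) turned positive. Under this offset 7 of 9 members were below 0, their median was -0.16, 0 had an unadjusted p under 0.05, and the smallest adjusted p was 0.780 (edgeR). Nlgn3 and Nlgn2 kept the largest part of their difference among the members, 72.9% and 65.8% of the log2 fold change.

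**Figure D4:**
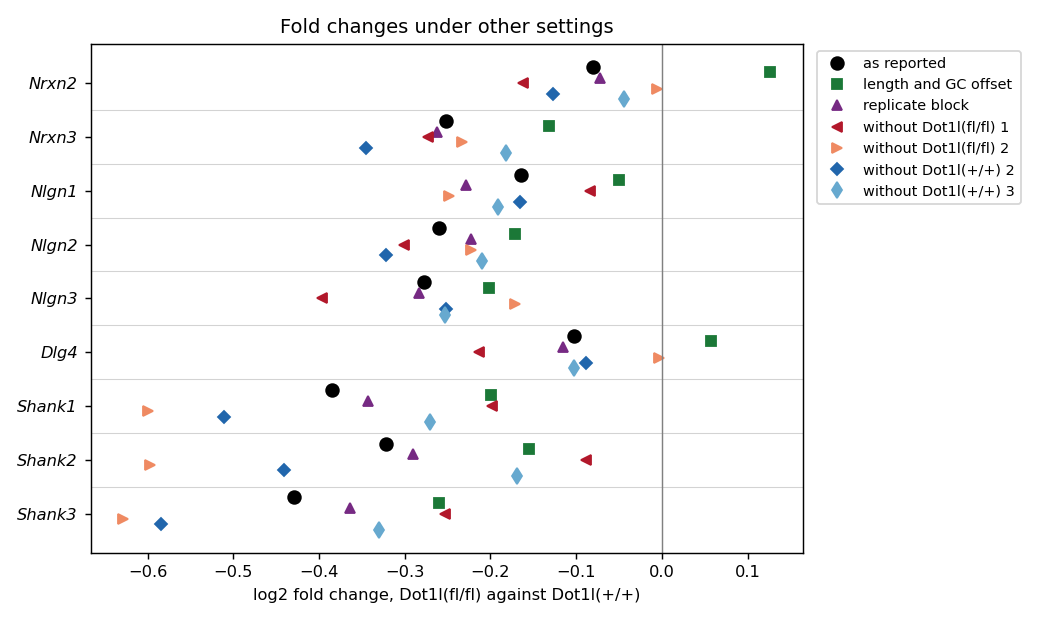
The log2 fold change in Dot1l(fl/fl) against Dot1l(+/+) of each gene (horizontal axis) as reported and under 6 other settings: a length and GC offset, a replicate block, and the loss of 1 named library. The Shank genes move most, from -0.63 without Dot1l(fl/fl) 2 to -0.09 without Dot1l(fl/fl) 1, and Nrxn2 and Dlg4 cross 0 under the offset.

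Genes known to work with the members were read from 8 lists of partners holding 161 genes, of which 158 were matched and 156 tested. In Dot1l(fl/fl) against Dot1l(+/+), 0 of them passed by edgeR after adjustment over all genes, 28 were lower and 4 higher at an unadjusted p under 0.05 (5.03% and 4.24% of all genes), and 113 (72.4%) were below 0. Their median log2 fold change was -0.10, between that of the members and that of all genes. In Dot1l(fl/+) against Dot1l(+/+), 14 were lower and 2 higher (2.86% and 2.16% of all genes). Between Dot1l(fl/fl) and Dot1l(fl/+) 5 were lower and 2 higher (2.16% and 1.86% of all genes), and for the linear term 33 and 4 (5.61% and 4.48% of all genes). Whether these partner counts hold under the length and GC offset or with a library left out was not tested. For the members, the count in Dot1l(fl/fl) against Dot1l(+/+) was 0 under the offset and 0 without Dot1l(+/+) 3. The partner genes named below were picked for the smallest p of their list in Dot1l(fl/fl) against Dot1l(+/+). Separation of their Dot1l(fl/fl) libraries from the controls is therefore largely fixed by that choice and is only a description. The share of all genes with these libraries under or above all 6 others was not counted.

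On the presynaptic side, ligands and partners of neurexins had 2 lower and 2 higher of 26 tested at an unadjusted p under 0.05, with a median of -0.05. Igsf21, a neurexin ligand of inhibitory presynapses, was at 26.6, 30.7 and 23.6 CPM in Dot1l(+/+), 29.5, 25.4 and 27.0 in Dot1l(fl/+), and 48.6 and 33.0 in the Dot1l(fl/fl)-labelled libraries, which both stood above the rest. Its log2 fold change of 0.60 ± 0.19 had an adjusted p of 0.269 (edgeR). Adgrl1, a latrophilin receptor that binds neurexins and teneurins, was at -0.23 ± 0.09 (adjusted p = 0.366, edgeR). In the presynaptic complex around the neurexin tail, 4 of 24 were lower and 1 higher, with a median of -0.18. The active zone genes Bsn (-0.38 ± 0.13) and Erc1 (-0.30 ± 0.11) led this list with adjusted p-values of 0.331 and 0.341 by edgeR. Of 12 regulators of neurexin splicing, 3 were lower and 0 higher, with a median of 0.0013. Nova2, a neuronal splicing factor, was at 248, 240 and 251 CPM in Dot1l(+/+), 227, 249 and 216 in Dot1l(fl/+), and 182 and 187 in the Dot1l(fl/fl)-labelled libraries, under all 6 others. Its log2 fold change was -0.42 ± 0.10 (adjusted p = 0.206), and that of Elavl3, another neuronal RNA-binding protein, was -0.28 ± 0.10 (adjusted p = 0.372, edgeR). Gene counts do not resolve which neurexin isoforms were made.

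On the postsynaptic side, by the same measure, partners of neuroligins had 2 lower and 0 higher of 11, with a median of -0.06. The scaffolds Magi3 (-0.37 ± 0.16) and Magi1 (-0.26 ± 0.11) were its leading genes, with adjusted p-values of 0.448 and 0.459 by edgeR. Partners of Shank and PSD-95 had 5 lower and 0 higher of 26, with a median of -0.15. Grin2b, an NMDA receptor subunit that binds PSD-95, was at 158, 143 and 173 CPM in Dot1l(+/+), 144, 131 and 135 in Dot1l(fl/+), and 121 and 122 in the Dot1l(fl/fl)-labelled libraries, which lay under all 6 others. Its log2 fold change was -0.39 ± 0.11 (adjusted p = 0.266, edgeR). Other scaffolds of the postsynaptic density had 4 lower and 0 higher of 18, with a median of -0.08, led by Tanc2 (-0.41 ± 0.12) and Ctnnd2 (-0.33 ± 0.10), with adjusted p-values of 0.266 and 0.269 by edgeR.

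Inhibitory postsynaptic genes had 3 lower and 1 higher of the 7 tested, with a median of -0.31, and 3 of the 11 listed were not matched. Shisa7, an auxiliary protein of GABA-A receptors, had a log2 fold change of -0.43 ± 0.13, and Lhfpl4, which holds GABA-A receptors and Nlgn2 together, of -0.33 ± 0.11, with adjusted p-values of 0.266 and 0.289 by edgeR. Lhfpl4 was at 295, 251 and 310 CPM in Dot1l(+/+), 292, 265 and 270 in Dot1l(fl/+), and 231 and 224 in the Dot1l(fl/fl)-labelled libraries, which were both under all 6 others. Other adhesion genes that act across the cleft had 5 lower and 0 higher of 32, with a median of -0.09. Ncam1 (-0.29 ± 0.09) and Tenm2 (-0.33 ± 0.11), a teneurin that binds latrophilins, led that list with adjusted p-values of 0.281 and 0.289 by edgeR.

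**Figure D5:**
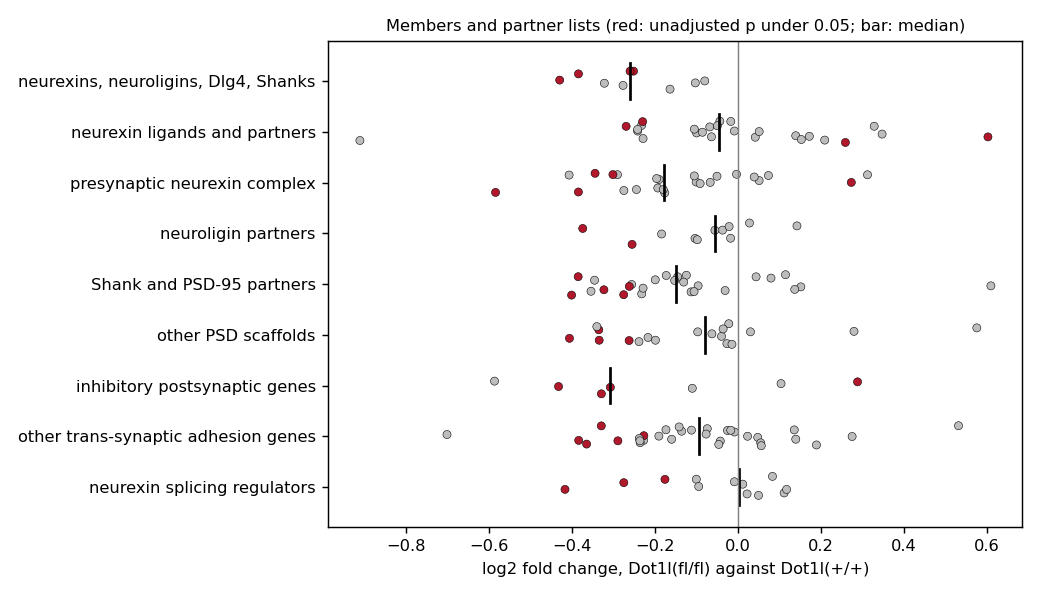
The log2 fold change in Dot1l(fl/fl) against Dot1l(+/+) (horizontal axis) of each of the 9 members and of the tested genes of 8 partner lists (rows), in red where the unadjusted p was under 0.05, with a bar at the median of each row. The members' median is -0.26, and list medians run from -0.31 for inhibitory postsynaptic genes to 0.0013 for regulators of neurexin splicing.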

How the data were processed

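RNA from sorted cells was sequenced from 9 samples, of which 8 libraries with raw counts per gene were used and 1, Dot1l(fl/fl) 3, is not analysed here. Per the labels and the methods of the study, the authors trimmed reads with Trimmomatic 0.30 and mapped them to GRCm38.p4, and the deposited count files hold whole read counts for 47729 genes, not normalized. The aligner and the strand setting of the counter are not given in the sources used here. The deposited comparison tables gave gene symbols, and their fold changes and p-values from DESeq2 1.10.1 were not used.

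Counts were tested with edgeR 4.0.16 (R 4.3.3), by the quasi-likelihood F test with TMM scaling, in 1 fit over 3 genotypes with no covariate, after filterByExpr left 17988 genes. Adjusted p-values are Benjamini-Hochberg over these genes, with a threshold of 0.05, and 95% intervals use the degrees of freedom of the fit. CPM divides a count by the TMM-scaled library size, and log2 CPM adds a prior count of 2. Lengths and GC content came from GENCODE models (99.1% of IDs matched). The members and the partner and marker lists were chosen with earlier results of these data known. In each partner list the 2 genes with the smallest p in Dot1l(fl/fl) against Dot1l(+/+) were named, except 1 gene that is not reported here, and genes like the Shank mean were the 5 with the highest r. Correlations used exact permutation tests, two-sided, for which the smallest p with 8 values is 4.96e-05. Replicates were separate pools of embryos, with matched sets of genotypes from each litter, and the fit did not use litter, so p-values measure the spread between these pools. No 2 libraries of a genotype differed by less than sampling noise (chi-square per degree of freedom 17.7 to 42.7). The fit was tested on simulated data. Alternatives were RLE scaling, no filter, DESeq2 1.42.0, 2 genotypes alone, a replicate block, a length and GC offset (splines with 4 degrees of freedom), both of these together, and the loss of each library in turn.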

Additional observations from a re-analysis of the deposited data

How the results depend on the processing

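Under 7 other settings and the loss of each of 8 libraries, 0 members passed the threshold in the 3 comparisons between genotypes. For the linear term in floxed alleles, 1 member passed with no filter on low counts (Shank1, adjusted p = 0.0234 by edgeR), and leaving out 1 library gave 0 to 2, namely 2 without Dot1l(+/+) 2 and 1 without Dot1l(fl/fl) 2. The median log2 fold change over the members in Dot1l(fl/fl) against Dot1l(+/+) was -0.16 under the offset for length and GC, and with 1 library left out it ran from -0.32 to -0.19. In Dot1l(fl/fl) against Dot1l(fl/+) that median ran from -0.21 (without Dot1l(fl/fl) 2) to -0.0625 with 1 library left out.

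The signs that turned belonged to small differences. With the length and GC offset, Nrxn2 was at 0.13 and Dlg4 at 0.0578 in Dot1l(fl/fl) against Dot1l(+/+), Nrxn2 at 0.12, Nlgn1 at 0.0540 and Dlg4 at 0.0957 in Dot1l(fl/+) against Dot1l(+/+), Nrxn2 at 0.0091 and Shank2 at 0.0032 between Dot1l(fl/fl) and Dot1l(fl/+), and Nrxn2 at 0.0675 and Dlg4 at 0.0344 for the linear term. With the replicate block and the offset together, Nrxn2 and Dlg4 were at 0.11 and 0.0195 in the first comparison, Nrxn2, Nlgn1 and Dlg4 at 0.12, 0.0545 and 0.0995 in the second, and Nrxn2 and Dlg4 at 0.0616 and 0.0204 for the linear term. With 1 library left out, values in Dot1l(fl/+) against Dot1l(+/+) ran from -0.00157 to 0.0784 for Nlgn3, from -0.0403 to 0.0167 for Dlg4 and from -0.12 to 0.0555 for Nlgn1. In Dot1l(fl/fl) against Dot1l(fl/+) they ran from -0.28 to 0.12 for Shank1, -0.32 to 0.18 for Shank2, -0.31 to 0.0578 for Shank3, -0.13 to 0.0321 for Nrxn2 and -0.21 to 0.00397 for Dlg4. The cause was not tested.

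Per the study's methods, each litter gave 1 matched set of the 3 genotypes to the pools, so pools of different genotypes can share litters, but no source used here ties a replicate number to such a set. Deviations of same-numbered libraries from their genotype means correlated at -0.03 to 0.05 over 7 pairs, and others at -0.05 to 0.04 over 14 pairs. The 2 Dot1l(fl/fl) libraries deviate from their mean by equal and opposite amounts, so their r mirror each other. These pairs are thus not independent and cannot decide whether the numbers pair the libraries. As no source gives the pairing, the numbers were not taken to pair the libraries. A replicate block left 0 members past the threshold in all 4 comparisons and 3, 2, 1 and 4 at an unadjusted p under 0.05 (4, 2, 1 and 5 without it), with a median over the members of -0.26, -0.12, -0.09 and -0.12 in the order of the report. The number of all genes called depended more on the setting than that of the members. Against 0 genes as reported, Dot1l(fl/fl) against Dot1l(+/+) gave 106 with no filter, 197 by DESeq2, 6 with the replicate block, 20 with block and offset, and up to 75 with 1 library left out. Dot1l(fl/+) against Dot1l(+/+) gave 11 with no filter, Dot1l(fl/fl) against Dot1l(fl/+) gave 14 with no filter, 1 by DESeq2, 4 with the block, 10 with block and offset and up to 7 with 1 library left out, and the linear term 172, 261, 1, 5 and up to 268. With 2 libraries labelled Dot1l(fl/fl), 1 of them at the control level of Dot1l, the 95% intervals of the members in Dot1l(fl/fl) against Dot1l(+/+) reached from -0.76 (Shank3) to 0.14 (Nlgn1).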
